A study of Mus musculus with 4 samples.

Results

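The Gata4 peaks described here are those that lay inside a gene, away from its start site, and were called in both WT and DKO Flk1(+) mesoderm cells. A member is a WT peak with a DKO peak within 500 bp of its position, which the authors' list places inside a gene and never within 1000 bp of a gene's 5′ end, and 2293 of the 20410 WT peaks met this rule. They were chosen from calls that rest on measured heights, so their heights and ratios are given as a description. They made up 2293 of the 9305 WT peaks with such a DKO partner, while 3941 others lay near a start site and 3071 outside genes.

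The cells were J1-derived mouse ES cells of 129 background that carry Gata4GR, a fusion of Gata4 with the part of the human glucocorticoid receptor that binds ligand. It is driven by the CAG promoter, and the ligand dexamethasone (Dex) activates it. DKO cells are Dnmt3a-/-Dnmt3b-/- and lack the enzymes that add new methyl groups to CpGs. WT Flk1(+) cells (clone J1G4.2 by the labels, a name that the study's methods give in a longer form) and DKO Flk1(+) cells (clone 16G4.3) were grown on OP9 stroma, treated with 100 nM Dex for 3 h, and collected at day 4.5 by magnetic sorting for Flk1, a receptor of early mesoderm. Undifferentiated ES cells of either genotype, kept without Dex, gave the WT ES and DKO ES libraries, and their labels give no clone. All 4 libraries were made with the same mixture of 3 antibodies to Gata4, which can also bind Gata4 that is not part of the fusion. Each condition had 1 library and each genotype 1 clone in the Flk1(+) cells, so genotype, clone and library cannot be told apart and no test of WT against DKO was possible. The lists hold no expression values, so neither the sort nor the deletion could be checked in them. They also give no depth. The study's methods state more mapped reads for DKO than for WT Flk1(+) cells, and whether heights were scaled for this is not known here. Intervals are 95% intervals over peaks (Wilson for shares, order statistics for medians) and cover counting error only.

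Gata4 is a zinc finger factor that binds short DNA sites with the core GATA and acts in heart, gut and primitive endoderm. Introns hold many enhancers, elements that can be bound far from the promoter they act on. Most such elements are poor in CpG and are methylated until factors bind them, whereas promoters in CpG islands are largely free of methylation. Zfpm1 and Zfpm2 (Fog1 and Fog2) are cofactors that bind Gata factors directly.

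The sites themselves are shown first, since most members carried the Gata sequence WGATAA (W for A or T) close to the peak position. Each line gives the mm9 plus strand around the WT position, 5′ to 3′, with every WGATAA match in capitals, read on either strand so that AGATAA also appears as TTATCT and TGATAA as TTATCA. The first 5 are among the tallest members or those with the greatest WT to DKO ratio.
*Sept9*, chr11:117197690-117197750: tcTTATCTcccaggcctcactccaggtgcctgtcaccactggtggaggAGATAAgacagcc
*Rgs6*, chr12:84174016-84174076: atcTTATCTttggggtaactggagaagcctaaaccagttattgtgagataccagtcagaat
*Zfpm1*, chr8:124846796-124846856: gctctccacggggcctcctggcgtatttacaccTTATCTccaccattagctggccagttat
*Gpr44*, chr19:11013418-11013478: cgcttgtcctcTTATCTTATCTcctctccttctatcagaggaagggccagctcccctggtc
*5730559C18Rik*, chr1:138126265-138126325: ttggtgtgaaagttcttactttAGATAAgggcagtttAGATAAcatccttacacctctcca

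A few members held a run of such matches. The longer stretches from *Kcnq5* and *Prkag2* are shown because they held 8 and 11 matches in the whole window of 250 bases to either side of the position that was deposited for the peak.
*Kcnq5*, chr1:21438951-21439151: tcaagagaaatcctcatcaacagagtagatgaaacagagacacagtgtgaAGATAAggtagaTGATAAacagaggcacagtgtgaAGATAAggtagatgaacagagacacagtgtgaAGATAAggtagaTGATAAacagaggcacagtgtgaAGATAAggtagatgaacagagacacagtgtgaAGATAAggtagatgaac
*Prkag2*, chr5:24583055-24583255: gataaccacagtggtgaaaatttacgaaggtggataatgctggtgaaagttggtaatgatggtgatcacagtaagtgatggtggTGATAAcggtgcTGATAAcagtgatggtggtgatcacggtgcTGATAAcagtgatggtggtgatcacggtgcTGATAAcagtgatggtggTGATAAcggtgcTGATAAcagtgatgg

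Exceptions of both kinds are shown for contrast. The windows in *Cacna1a* and *Vac14* held no match although their WT heights were 5.01 and 4.83 times the DKO heights, and the window in *Plcg2*, where the DKO peak was the taller, held 1 match outside the bases shown.
*Cacna1a*, chr8:86953551-86953611: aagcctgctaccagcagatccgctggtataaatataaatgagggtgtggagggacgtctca
*Vac14*, chr8:113192807-113192867: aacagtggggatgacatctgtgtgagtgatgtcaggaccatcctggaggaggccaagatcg
*Plcg2*, chr8:120120860-120120920: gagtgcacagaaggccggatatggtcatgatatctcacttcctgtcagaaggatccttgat

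A WGATAA match stood in 1780 of 2293 windows, or 77.6% (75.9% to 79.3%). In windows of the same length 2000 bp to either side the share was 38.5% (37.1% to 39.9%), and in the windows of the paired DKO peaks it was 78.4%. Shared peaks outside genes had nearly the same share, 78.2% (76.6% to 79.6%), and those near a start site had 18.7% (17.5% to 19.9%). At least 2 matches stood in 1040 members, or 45.4%, and at least 5 in 38. The matches gathered at the position: the nearest one had a median distance of 30.5 bp from the WT position and 31.5 bp from the DKO position, and 47.9% of the 3485 matches lay in the bases within 50 bp of it.

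**Figure D1:**
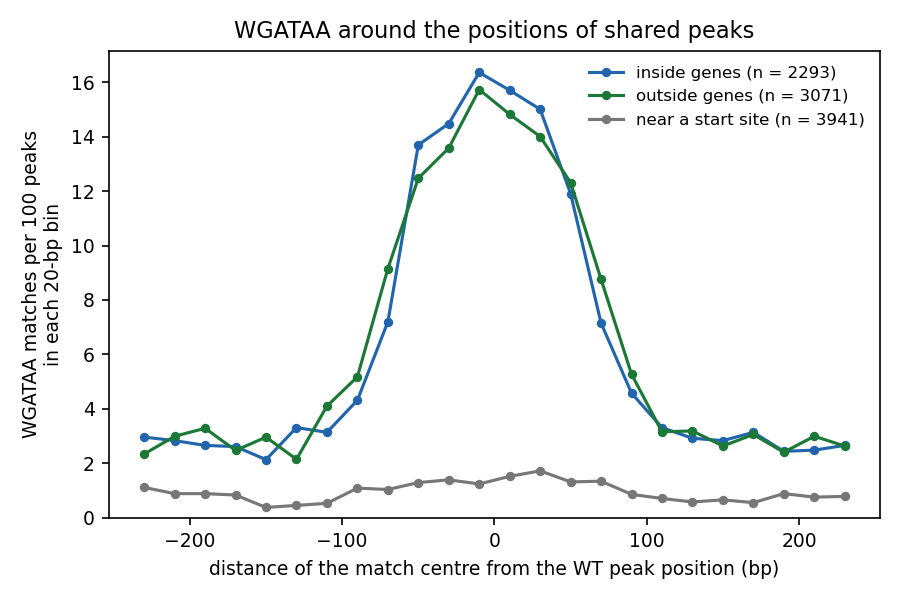
WGATAA matches per 100 peaks in 20-bp bins, against the distance in bp of the match from the WT peak position, for shared peaks inside genes, outside genes and near a start site. The curve inside genes rises from 2.97 matches per 100 peaks at the left edge to 16.4 next to the position and runs beside the curve outside genes.

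The central matches also had a preferred setting. Of the 1669 matches in those central bases, 64.8% began with A, against 54.7% of the 468 in the same stretch of the flanking windows, and 55.3% were followed by G, against 20.1%. The longer form WGATAAG accordingly stood in 52.9% of members (50.8% to 54.9%) and 10.6% of flanking windows (9.78% to 11.6%). Among shared peaks outside genes its share was much the same as in members, 51.5%. CGATAA, the core after a C, stood in 5.41% of members and 2.12% of flanking windows. A CTG followed by GATAA after 8 bases, the arrangement known for Tal1 and Gata1 in blood cells, stood in 6.67% of members and 1.46% of flanking windows, and with 9 bases between them in 7.07% and 1.68%.

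Sequences of other factors were searched on both strands in the same windows. TGACTCA, the AP-1 sequence, stood in 20.7% of members (19.1% to 22.4%) and 7.92% of flanking windows. CAGCTG, an E-box bound by basic helix-loop-helix factors, stood in 34.7% (32.8% to 36.6%) and 22.02%. The differences were smaller for TGACAG of Meis factors, with 40.1% and 32.3%, for GGAATG of Tead factors, with 31.3% and 24.95%, and for the Fox sequence TGTTTAC, with 9.25% and 6.63%. ACAAAG of Sox factors (36.9% and 37.2%) and AGGTGT of T-box factors (27.0% and 26.5%) differed by less than the intervals of the shares. GGGCGG, bound by Sp and Klf factors, stood in 16.8% of members and 9.77% of flanking windows, and within 100 bp of the position in 9.11% of members against 52.4% of shared peaks near a start site. The paired glucocorticoid receptor sequence, GAACA and TGTTC with 3 bases between them, was found in 2 members, or 0.0872%. Shared peaks outside genes had shares like those of members, so these sequences were not particular to peaks inside genes. TGACTCA stood there in 19.6%, CAGCTG in 32.2%, TGACAG in 39.4%, GGAATG in 35.3% and TGTTTAC in 10.2%. A match is a description of the letters in the window and does not show that a factor was bound.

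The members were poor in CpG. The median window held 6 CpGs, against 7 outside genes and 38 near a start site, and 1536 members, or 67.0%, held no more than 8. A further 119 held more than 25, and 63 of these lay within 1000 bp of the start of some GENCODE transcript that the authors' gene distances had not counted.

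Most members were intronic. By the longest GENCODE transcript of the host gene, 2061 lay in an intron, or 89.9% (88.6% to 91.1%), 46 in a coding exon, 32 in a 3′ UTR, 13 in a 5′ UTR and 3 in an exon of a non-coding gene. Another 114 lay outside the longest transcript of their gene, and for 24 no gene was found in this annotation. Intron 1 held 761 members, which is 36.9% of the intronic members, while it makes up 28.9% of the intron length that the rule allows in the host genes. The median distance to the gene's 5′ end was 34925 bp, with 25% of members nearer than 10217 bp. The few members in 5′ UTR exons were rich in CpG, with a median of 35, and their median ratio of WT to DKO height was 1.11. Those in coding exons had a median of 24.5 CpGs, WGATAA in 37.0%, and a ratio of 1.07 (0.920 to 1.37), against 1.45 (1.40 to 1.49) for the intronic members.

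Peak positions in both lists were close. The median distance within a pair was 24 bp, 1620 pairs (70.7%) lay within 50 bp and 28 had the same position. The 2293 members were paired with 2109 DKO peaks, because neighbouring WT peaks can share a DKO peak. In 191 pairs the DKO peak lay nearer to another WT peak, and the other 2102 members are said here to have their own DKO peak. At the edge of the rule, the 43 members paired at over 400 and up to 500 bp had median heights of 6.54 (WT) and 7.27 (DKO), and 34 WT peaks inside genes with a DKO peak over 500 and up to 600 bp away had 6.47 and 7.15. The 92 shared peaks inside genes and over 1000 and up to 1500 bp from a start site had median heights of 8.89 and 6.70 and 13 CpGs, and the 199 at over 500 and up to 1000 bp, which the rule leaves out, had 7.51 and 7.29 and 26 CpGs.

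The profile of Gata4 at these sites was higher in WT than in DKO Flk1(+) cells. The median WT height was 10.9 (10.5 to 11.2) and ranged from 5.00 to 141.8, and the median height of the paired DKO peaks was 7.28 (7.13 to 7.46) and ranged from 5.00 to 100.98. The WT peak was the taller in 1798 members, or 78.4%. The median ratio of WT to DKO height was 1.43 (1.39 to 1.48), the same within its interval as outside genes (1.43) and above that near start sites, 1.05 (1.04 to 1.07). WT was at least 2 times as high as DKO in 581 members, or 25.3%, against 16.0% of all 9305 shared peaks. DKO was at least 2 times as high as WT in 33 members, or 1.44%, against 2.18% of all shared peaks. Since the heights chose the members, these shares are not evidence about them. A lower height can mean fewer cells with Gata4 at the site or less Gata4 in each. It can also come from the depth or scale of the libraries, and these cannot be told apart.

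**Figure D2:**
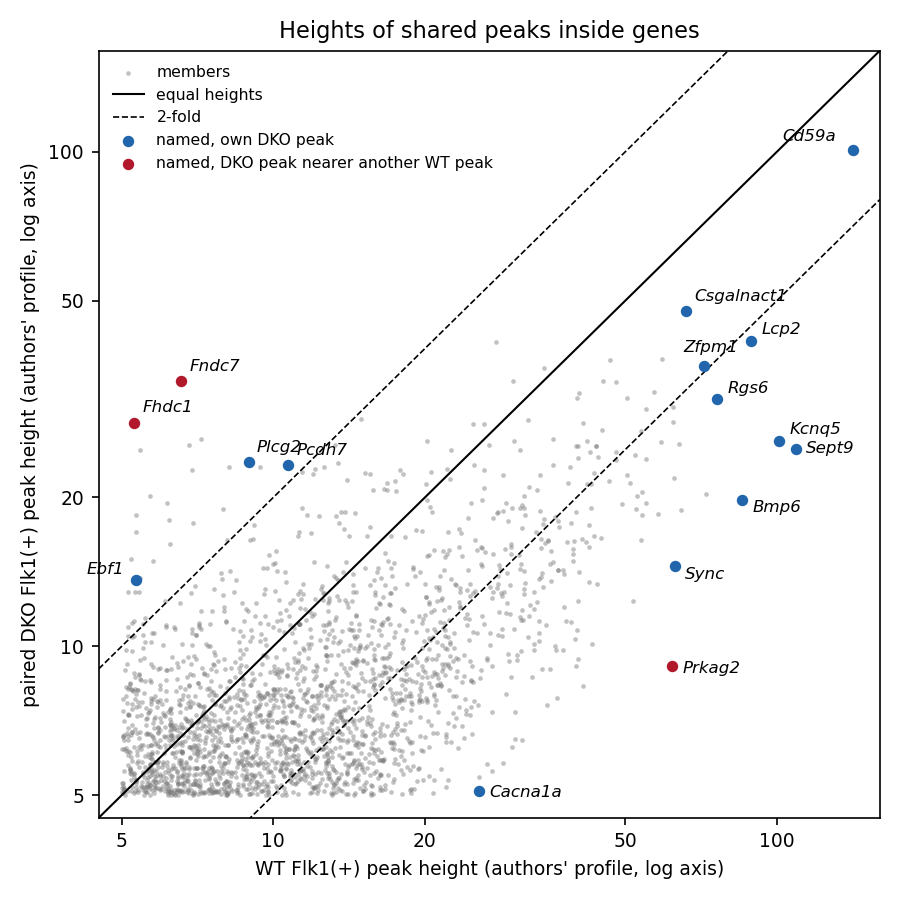
Height of each of the 2293 members in the WT Flk1(+) list (horizontal, log axis) and of its paired DKO Flk1(+) peak (vertical, log axis), with lines for equal heights and for 2-fold differences and with named members coloured by whether the DKO peak is their own. Most points lie below the line of equal heights, and no height is under 5.00, which is the calling threshold.

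The ES libraries, which serve as background, differed in the same direction. At the members' positions the median ES height was 1.93 (1.87 to 2.00) in WT and 1.22 (1.18 to 1.25) in DKO. Per member, with heights under 1 taken as 1 as the authors' ratio does, the median ratio of WT ES to DKO ES height was 1.45 (1.42 to 1.48), close to the ratio of the Flk1(+) heights. Near start sites it was 1.16 (1.14 to 1.18), and outside genes 1.45 (1.41 to 1.48). The enrichment over ES was therefore not higher in WT: the median was 5.15 (5.01 to 5.29) in WT and 5.66 (5.55 to 5.77) in DKO, the median ratio of WT to DKO enrichment was 0.958 (0.934 to 0.981), and WT had the higher enrichment in 1063 members, or 46.4% (44.3% to 48.4%). By enrichment, 8.90% of members were at least 2 times higher in WT and 9.16% in DKO. The direction of the difference between WT and DKO thus depended on whether the height or the enrichment was compared, and how much of the height difference comes from depth or scaling was not tested.

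The ratio of heights followed the sequence of the window. It fell from a median of 1.68 in the 270 members with 0 to 2 CpGs, of which 35.2% had WT at least 2 times DKO, to 1.11 (1.03 to 1.19) in the 119 members with over 25, of which 5.88% did. It was 1.17 (1.12 to 1.22) in the 513 members without WGATAA, 1.42 with 1 match, 1.59 with 2 and 1.69 with 3. Among members with up to 8 CpGs the median was 1.22 (1.16 to 1.28) without and 1.58 (1.53 to 1.63) with WGATAA, and among those with 9 or more CpGs it was 1.14 (1.10 to 1.18) without and 1.45 (1.38 to 1.52) with it. The intervals of the CpG classes thus overlapped among members without WGATAA. Members with WGATAA were also taller, with WT medians of 10.4 for 1 match and 12.4 for 2 against 8.02 for none, and the DKO medians moved less, from 6.85 for none to 7.13 and 7.36.

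**Figure D3:**
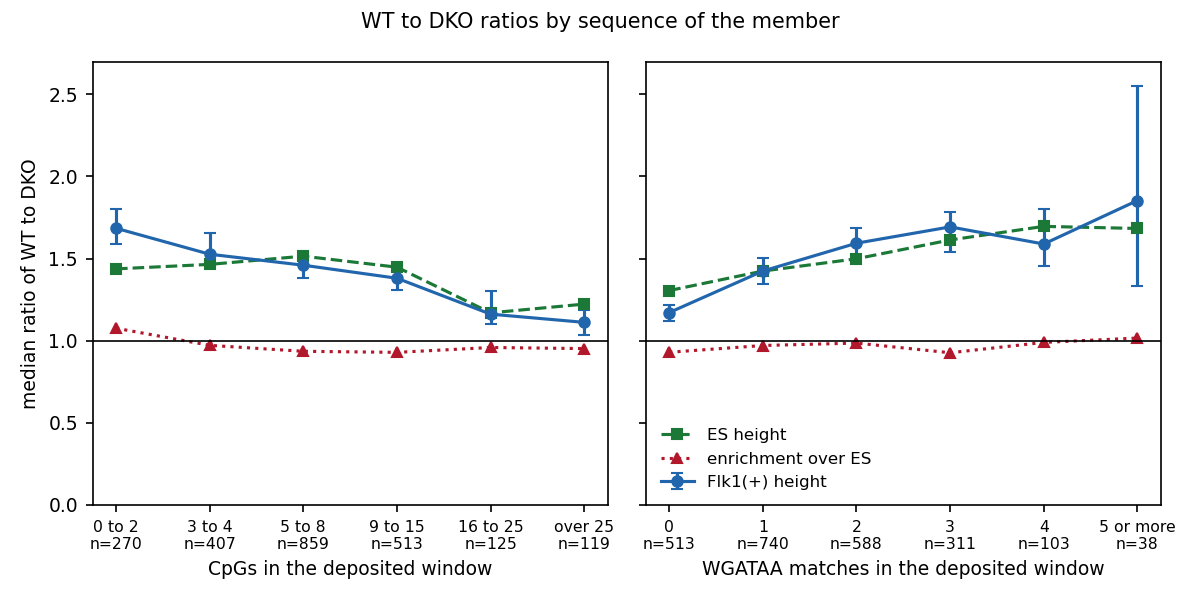
Median ratio of WT to DKO for the Flk1(+) height (circles, with 95% intervals), the ES height (squares) and the enrichment over ES (triangles), by the number of CpGs (left) and of WGATAA matches (right) in the window, with the number of members under each class. The Flk1(+) height ratio falls in each CpG class in turn, from 1.68 to 1.11, whereas the ES ratio is 1.44 to 1.51 up to 15 CpGs and 1.17 and then 1.22 beyond. With WGATAA the ES ratio goes from 1.31 without a match to 1.68 with 5 or more, and the enrichment ratio stays between 0.927 and 1.08 in all classes.

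The ratio also rose with height itself, and the part of height in the CpG and WGATAA gradients was not tested. Because no height under 5.00 was listed, low members cannot differ much: when the members were split into 4 equal classes by the geometric mean of both heights, in the lowest class the median ratio was 1.09 and no member reached 2-fold, whereas in the highest class it was 1.94 (1.81 to 2.00) and 45.9% had WT at least 2 times DKO. The share with WGATAA rose over the same classes, which are built from the heights that also make the ratio, from 63.6% to 89.4%. Over the 2293 members the Spearman correlation of WT and DKO heights was 0.473, that of the ratio with CpG number -0.165 and with WGATAA number 0.243, all on members that share 2 libraries.

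The tallest member in both lists lay in intron 2 of *Cd59a*, which encodes an inhibitor of complement. Its height was 141.8 in WT and 100.98 in DKO Flk1(+) cells, 20.4 in WT ES and 9.47 in DKO ES cells, so that the enrichment was 6.93 in WT and 10.7 in DKO. These were the greatest heights of any member in all 4 libraries. The member in intron 2 of *Sept9*, a septin of the cytoskeleton, had a height of 108.9 in WT and 25.03 in DKO Flk1(+) cells, and 5.25 and 1.805 in the ES libraries. Its enrichment was 20.8 and 13.9. In intron 11 of *Kcnq5*, a potassium channel gene, the member with 8 matches had heights of 100.8 and 26.05 at the identical position, with 4.26 and 2.88 in ES cells. *Sept9* and *Kcnq5* were higher in WT by height and by enrichment.

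Several other tall members lay in genes of signalling. In intron 3 of *Lcp2*, an adaptor of lymphocyte receptor signalling, the heights were 88.7 and 41.5, and the WT ES height was 12.4 against 2.15 in DKO ES. The enrichment there was lower in WT (7.15) than in DKO (19.3), against the order of the heights. In intron 2 of *Bmp6*, a BMP ligand, the heights were 85.2 and 19.8 and the enrichment 22.8 and 16.9. *Rgs6*, a regulator of G protein signalling, had heights of 76.1 and 31.6 in intron 12, and an enrichment of 16.8 and 29.65. *Gpr44*, a prostaglandin receptor gene, had 64.4 and 18.9 in intron 1.

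The remaining tall members followed the same order of heights. In *Sez6*, known from neurons, they were 72.3 and 20.4, in *Csgalnact1*, an enzyme of chondroitin sulphate synthesis, 66.0 and 47.6, in *Dnahc2*, a dynein heavy chain, 63.8 and 25.7, and in *Sync*, an intermediate filament gene of muscle, 62.7 and 14.5. All 12 members of greatest WT height were thus higher in WT, as their choice by WT height favours.

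The greatest ratios were found in members that were low in DKO. The member in intron 1 of *Prkag2*, a subunit of the energy sensor AMPK, had a height of 61.9 in WT and 9.10 in DKO, a ratio of 6.80, but its DKO peak lay 182 bp away and nearer to the neighbouring WT peak, where the ratio was 2.73. In *Cacna1a*, a calcium channel gene, the heights were 25.6 and 5.10, and in *Vac14*, a scaffold for a lipid kinase, 31.1 and 6.45. *Adamts14*, a protease that acts on procollagen, had 27.1 and 5.601 in intron 2, and *5730559C18Rik* had 28.6 and 5.81 in intron 1. The member in *E430016F16Rik* had 41.2 and 8.33, with ES heights of 0.543 and 0.236, and enrichments of 41.2 and 8.33. *Als2cr11* (29.7 and 6.25) and *Tbc1d22a* (25.6 and 5.43) complete the 8 greatest ratios among the 1375 members with a height of at least 10 in 1 list.

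At the other end, 7 of the 8 lowest ratios came from WT peaks whose DKO partner lay nearer to another WT peak, so that the WT height there belongs to a side summit. These were in *Fhdc1* (5.28 in WT and 28.3 in DKO), *Fndc7* (6.56 and 34.4), *Gtf2i* (5.43 and 24.9), *Palld* (6.80 and 25.5), *D7Ertd443e* (7.20 and 26.3), *Pard3* (5.69 and 20.1) and *Prdm6* (5.35 and 18.5), at distances of 258 to 473 bp. In *Palld* the main WT peak stood at 26.8 against the same DKO peak, a ratio of 1.05. Among the 33 members with DKO at least 2 times WT, 20 were of this kind and 13 had their own DKO peak. For the 191 such members the median ratio was 0.989, and for the 2102 with their own DKO peak it was 1.49 (1.45 to 1.53).

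The members with their own, taller DKO peak are named by the same order. The lowest ratio was in *Smurf1*, a ubiquitin ligase that acts on BMP receptor Smads, with 6.89 in WT and 22.8 in DKO at positions 256 bp apart. In *Plcg2*, a phospholipase of immune cells, the heights were 8.93 and 23.6 at positions 16 bp apart, with enrichments of 4.91 and 23.6. *Pcdh7*, a protocadherin gene, had 10.7 and 23.2 at positions 6 bp apart, and *Ebf1*, a factor of B cells, 5.34 and 13.6 at positions 5 bp apart. The others were in *Afap1l1* (5.22 and 15.0), *Lrrc43* (6.93 and 17.8), *Rassf4* (5.43 and 13.8, in its last exon) and *Mecom* (9.40 and 23.0). The DKO ES height was the higher of the ES pair in *Lrrc43* (1.92 in WT ES and 3.23 in DKO ES) and *Mecom* (2.03 and 3.34). It was the lower in the other 6, from *Smurf1* with 2.02 and 2.00 to *Plcg2* with 1.82 and 0.522.

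The members lay in 1466 named genes, and 1416 of the 22238 protein-coding genes of the annotation, or 6.37%, held at least 1. Most genes, 1012, held 1 member, 275 held 2 and 43 held 5 or more. With each host gene counted once, the median host gene spanned 91461 bp, against 15512.5 bp for the median protein-coding gene. The genes with members were thus long ones, and a count per gene has to be read beside the gene's length.

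*Zfpm1*, the gene of the Gata cofactor Fog1, held the most members, 15, within 55108 bp. They were paired with 11 DKO peaks, and 11 of the 15 windows held WGATAA. Intron 3 held the tallest, with heights of 71.8 in WT and 36.8 in DKO, and a neighbour with 58.8 and 25.9. Intron 4 followed with 55.0 and 19.5, and intron 1 with 47.9 and 24.7. These 4 had WT ES heights of 6.32 to 10.6 and DKO ES heights of 0.995 to 2.76, and the enrichment of the tallest was 6.75 in WT and 13.4 in DKO. Some lower members were higher in DKO, among them a member of intron 3 with 14.7 against 9.996 and a member of intron 1 with 13.3 against 6.99. Neither held WGATAA, and each had its own DKO peak. The median ratio over the 15 was 1.60, with 3 members at least 2 times higher in WT and 1, a side summit, in DKO.

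*Bcas3* held 14 members over 472892 bp, 13 with WGATAA. The tallest members stood in introns 25 and 26, with heights of 42.0 and 25.95 in the former and 41.1 and 16.5 in the latter. A member of intron 24 had 26.6 in WT and 5.79 in DKO, a ratio of 4.59, while another in that intron had 22.2 and 22.8. *Auts2* also held 14, over 1106010 bp, with 37.6 and 14.3 at the tallest and a median ratio of 1.32. *Dnahc2* held 10 within 128302 bp. *Frmd4b* held 8 over 330675 bp with a median ratio of 1.91, *Palld* 8 over 389445 bp with 1.17, and *Maml3*, a coactivator of Notch signalling, 8 over 417281 bp with 1.36.

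*Ddc* and *Trp73* went against the general order. *Ddc*, the gene of aromatic amino acid decarboxylase, held 10 members within 83944 bp, each with its own DKO peak. Their heights were nearly equal: 29.9 in WT and 34.4 in DKO for the tallest, and 26.2 and 22.8 for the next. The median ratio was 0.992 with a range of 0.738 to 1.93. By enrichment each *Ddc* member was higher in DKO, with 3.89 in WT and 8.55 in DKO for the tallest. *Trp73*, of the p53 family, held 10 between positions 153438624 and 153455463 of chromosome 4, none with WGATAA. Their heights ran from 5.198 to 7.22 in WT and from 5.65 to 11.2 in DKO, with a median ratio of 0.810 and a greatest ratio of 1.08.

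**Figure D4:**
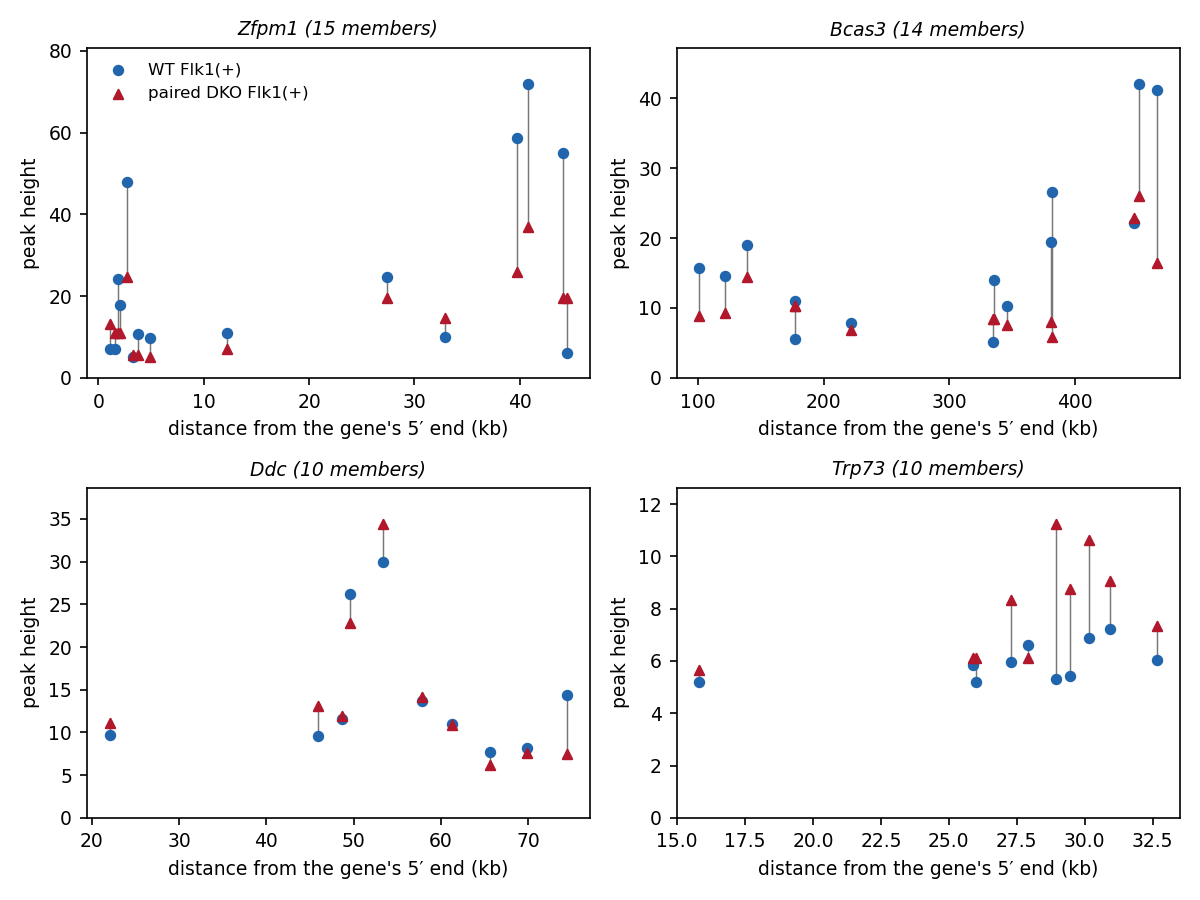
Heights of the members in *Zfpm1*, *Bcas3*, *Ddc* and *Trp73* against their distance in kb from the gene's 5′ end, with WT as circles, the paired DKO peak as triangles and a line joining each pair. In *Zfpm1* and *Bcas3* the tallest members are higher in WT, although 1 tall member of *Bcas3* has 22.2 in WT and 22.8 in DKO. In *Ddc* the heights of both lists are alike, and in *Trp73* the DKO triangles reach 11.2 where no WT circle exceeds 7.22.

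Genes of the pathways that bear on Gata4 and mesoderm were counted in lists chosen with earlier results of these data known, each beside the 6.37% of all coding genes. Pairs of values are the WT and DKO heights, and the order can turn by enrichment, as in *Ryr2* (5.79 and 14.9) and *Itga9* (6.88 and 9.62). Counts past 2-fold stand beside the 16.0% (WT higher) and 2.18% (DKO higher) of all shared peaks and the 25.3% (WT higher) of all members, and none of these lists was tested against them. Of 8 genes for Gata factors and their cofactors, 3 held members: *Zfpm1*, *Zfpm2* with 5 over 449551 bp, and *Gata6* with 1. The member in intron 6 of *Gata6*, a factor of heart and primitive endoderm, had heights of 21.2 in WT and 12.3 in DKO. In intron 3 of *Zfpm2* a pair of neighbouring members, with 5 and 2 WGATAA matches, had 12.002 and 7.42, and 11.1 and 7.52. Their ES heights were under 1 in both genotypes.

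Of 31 placed genes for regulators of cardiac and lateral mesoderm, 12 held 27 members, or 38.7% of the genes (23.7% to 56.2%), at a median gene length of 14056 bp. The median ratio was 1.49, and 6 members, a share near that of all members, were at least 2 times higher in WT and 1 in DKO. *Tead1*, a factor of the Hippo pathway, held 7 over 227488 bp, the tallest with 39.3 and 15.7. In *Prdm16* the heights were 34.3 and 17.7, and in *Meis1*, a homeobox gene, 32.2 and 21.0. *Tbx5*, a regulator of heart and forelimb, had members at 21.8 and 14.3 and at 12.1 and 5.93 in its last intron. Both members in intron 5 of *Myocd*, a coactivator of smooth and cardiac muscle genes, were low, at 5.58 and 5.19 and at 5.08 and 8.96.

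Of 29 contractile and cytoskeletal muscle genes, with a median length of 26817 bp, 8 held 15 members with a median ratio of 1.67. WGATAA stood in 14 of the 15, beside 77.6% of all members. At least 2 times higher in WT were 7, beside 16.0% of all shared peaks and 25.3% of all members. *Ryr2*, the calcium release channel of the heart, had 47.9 and 23.8 in intron 1. *Mylk*, the kinase of myosin light chain, had 20.4 and 5.47, and *Myh11*, smooth muscle myosin, 22.4 and 10.1. *Ttn*, which encodes titin, had neighbouring members at 17.5 and 17.2 in WT against a single DKO peak of 8.03.

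Genes of vessels and blood held 19 members in 8 of 29 genes, at a median gene length of 42878 bp and with a median ratio of 1.22. *Kdr*, which encodes Flk1 itself, had a member in intron 10 that was slightly higher in DKO, 24.9 against 28.2, with enrichments of 12.3 and 25.9, and a member in intron 15 with 13.3 and 7.30. *Flt1*, a related receptor, held 5 over 164408 bp, among them 18.9 and 7.66 in intron 16 and 13.4 and 23.5 in intron 10. *Runx1*, a regulator of blood formation, had 32.2 and 11.5 with 6 WGATAA matches. In *Nrp1*, a receptor for vessel guidance, intron 1 had 29.0 and 11.65, and in *Erg*, an endothelial factor, intron 3 had 20.8 and 10.4 and, further along, 6.38 and 10.85.

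Signalling genes were represented by ligands, receptors and intracellular mediators. In the BMP and TGF-beta list, with a median gene length of 61417 bp, 6 of 32 genes held 11 members. All 11 but those of *Ltbp1* and *Tgfb1* were in Smad genes. The median ratio of the 11 was 1.25, and 2 of them, both in *Smad1*, were at least 2 times higher in WT. The list leaves out *Bmp6* and *Smurf1*, whose members are given above. *Smad1*, a mediator of BMP signals, held 5 in its intron 1, within a gene of 61124 bp, with 42.4 and 17.6 at the tallest and 30.4 and 9.38 at the next, and 5.72 and 7.65 at the lowest. In the Wnt list, with a median gene length of 31050.5 bp, 8 of 34 genes held 13 members with a median ratio of 1.32. The ligand gene *Wnt3* had heights of 23.0 and 7.15 and enrichments of 18.5 and 7.15, and its side summit 5.97 against the same DKO peak. *Wnt11*, also a ligand, was higher in WT by height, 12.2 and 5.06, but not by enrichment, 4.92 and 5.06. *Ror1*, a Wnt receptor, had heights of 17.5 and 7.66 at the tallest of its 4, and *Lef1*, a nuclear mediator, had heights of 18.05 and 6.15 and enrichments of 5.20 and 5.36 in a window with 41 CpGs.

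Members in the endoderm list had a median ratio below that of all members, but they were few and 4 of the 10 lay in *Col4a1*. In this list, with a median gene length of 22707 bp, 5 of 31 placed genes (*Col4a1*, *Col4a2*, *Cubn*, *Lamc1* and *Sparc*) held 10 members. All 10 held WGATAA, beside 77.6% of all members. Their median ratio was 1.10. None passed 2-fold in either direction, beside 16.0% and 2.18% of all shared peaks and 25.3% and 1.44% of all members. *Col4a1*, a basement membrane collagen made in quantity by primitive endoderm, held 4: 31.2 and 19.3 in intron 21, and 17.1 and 16.7, 12.5 and 12.4, and 12.4 and 13.1 in intron 2. *Lamc1*, a laminin chain, had 16.6 and 9.45, and *Sparc*, a matrix protein, 15.8 and 8.59. The matrix and integrin list held 12 members in 9 of 33 genes, at a median gene length of 80587 bp. Their median ratio was 1.85, with *Itga9* (23.9 and 9.62) and *Tnc* (17.4 and 6.36) among them. Genes of matrix proteins such as *Col4a1* and *Lamc1* were counted in the endoderm list, so the 2 lists do not set endoderm apart from matrix. The endoderm list is short, and the difference between the lists was not tested.

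The genes that the study found to respond more to Gata4 in DKO mesoderm were chosen on expression in these cell lines and are not independent of them. Of 92 placed genes, 15 held 27 members, or 16.3% (10.1% to 25.2%), at a median gene length of 24655 bp. WGATAA stood in 26 of the 27 windows, beside 77.6% of all members. Their median ratio was 1.78, with 11 members at least 2 times higher in WT and 1, a side summit, in DKO. Beside these stand 16.0% and 2.18% of all shared peaks and 25.3% and 1.44% of all members. *Ank3*, an adaptor of the membrane skeleton, had 35.1 and 16.4, *Ano4* 34.8 and 11.1, and *Ptprb*, a phosphatase of endothelium, 31.4 and 14.2. *Sh2d4a* held both orders: 28.7 and 12.9 in intron 3, and 14.9 and 28.75 in intron 7. Of the 11 genes of the ChIP, bisulfite or reporter work, *Spon1*, *Thbs4*, *Lgmn* and *Myocd* held 6 members with a median ratio of 1.12. *Spon1* had 15.4 and 7.08, and a side summit of 7.19 against the same DKO peak, *Thbs4* had 10.6 and 7.06, and *Lgmn* 7.64 and 6.55, beside the *Myocd* pair given above. The rule leaves out every peak called only in DKO. The study reports DKO-specific Gata4 peaks near part of its responsive genes, *Lgmn* among them. The ratios given here thus describe the shared peaks inside these genes and not all of their Gata4 peaks.

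A few lists had single hits. *Zbtb16*, a known target of the glucocorticoid receptor, was the gene of 15 in that list with a member, at 42.3 and 13.5 with 1 WGATAA match. *Tet1*, which oxidises methylated cytosine, was the gene of 8 DNA methylation genes, at 27.3 and 12.9 in intron 3. Among 19 pluripotency genes *Esrrb* held 3, at 12.4, 11.5 and 10.2 in WT against 8.08, 8.64 and again 8.08, and *Klf4* held 1 in a coding exon with 41 CpGs, at 6.24 and 7.43.

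Among the autosomes, members of chromosomes 8 and 11 stood apart in the ES libraries. On chromosome 8 the 177 members had a median WT ES height of 2.43, against 1.87 on the chromosomes other than 8 and 11, and a median ratio of WT to DKO enrichment of 0.783. The height ratio there was 1.55 (1.37 to 1.66). On chromosome 11, which held 305 members, or 13.3% of all, the DKO ES height was 1.52 against 1.15, the height ratio was 1.26 (1.17 to 1.34) and the enrichment ratio 1.03. The other chromosomes together had a height ratio of 1.45 (1.40 to 1.49). They include the X chromosome, whose 26 members had lower median ES heights, 1.25 in WT and 0.725 in DKO. The height ratio on the X chromosome was 1.19 (0.953 to 1.72). *Zfpm1* lies on chromosome 8, and *Bcas3*, *Ddc*, *Dnahc2* and *Sept9* on chromosome 11. The part of these chromosomes' ES levels in the ratios of those genes was not tested.

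**Figure D5:**
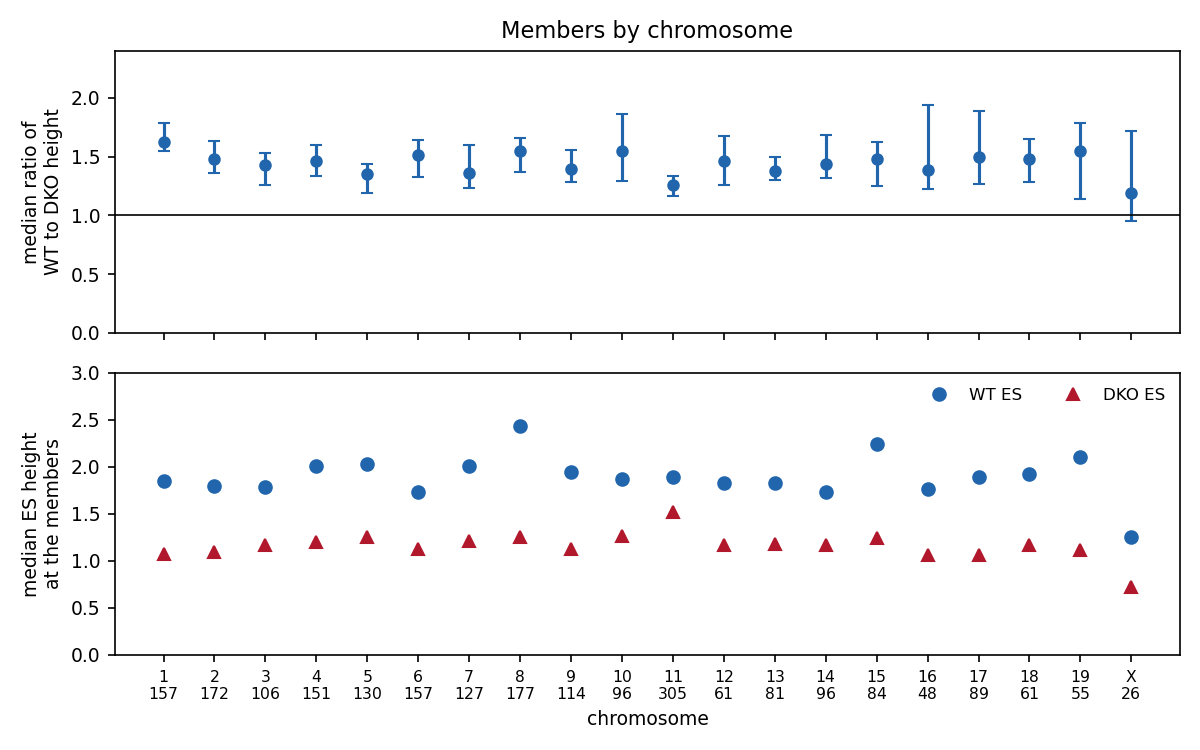
Upper panel: median ratio of WT to DKO height with its 95% interval for the members of each chromosome. Lower panel: median WT ES (circles) and DKO ES (triangles) height at the same members, with the number of members under each chromosome, where WT ES is highest on chromosome 8 (2.43) and DKO ES on chromosome 11 (1.52).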

How the data were processed

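Gata4 ChIP-seq of 4 libraries was analysed from the authors' peak lists. A company mapped the reads to mm9, with an aligner not given in the sources used here. The submitters' processing notes name CASAVA 1.8.1 and cutadapt. The authors called peaks with DNAnexus tools (bandwidth 30, candidate threshold 5.0, enrichment 3.0 and mapping ratio 3.0) in both Flk1(+) libraries, each with the ES library of its genotype as background. The deposited height is a signal of the authors' profile. The deposited enrichment is a ratio of Flk1(+) to ES height with ES heights under 1 taken as 1. The authors' q-value is given as −log10. The deposited rank is a score of order. The lists name no library, so their genotype was taken from the peak numbers that the study states.

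Peaks were paired by nearest position. The windows of all 20410 WT peaks, 250 bases to either side of the position, equalled the mm9 reference. Introns and exons came from the longest GENCODE vM1 transcript, and distances to 5′ ends from the authors. Motifs were matched exactly on both strands, and sequences are 61 bases or, for members with most matches, the bases within 100 bp. Named were the 12 tallest members, the 8 greatest and 8 lowest ratios, the 8 lowest with their own DKO peak, the 5 members with most WGATAA, the genes with most members, and list genes. Of the genes that this rule names, 1 is not reported here. The members and lists were chosen with earlier results of these data known. Ratios of enrichment and of ES height were chosen after seeing the data. The steps were tested on simulated data. Tools were pysam 0.24.0, pandas 2.3.3, SciPy 1.17.1, NumPy 2.4.6 and Matplotlib 3.10.9 under Python 3.11.15.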

Additional observations from a re-analysis of the deposited data

How the results depend on the processing

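The order of WT and DKO turned under 1 alternative, chosen after seeing the data: by enrichment over ES in place of the height the median ratio was 0.958, and the shares past 2-fold were 8.90% for WT and 9.16% for DKO. The cause was not tested. Of the 92 recomputed values 56 moved by less than their interval or, for counts, less than 1.5 times. With positions within 250 bp the median WT height was 11.3, the median ratio 1.48 and the share with DKO at least 2 times WT 0.561%. With 100 bp these were 11.95, 1.53 and 0.470%, the share with WT at least 2 times DKO was 28.5% and the share with WGATAA 81.3%. With start sites excluded to 5000 bp the WGATAA share was 80.7% and the intronic share 91.2%. The better-ranked part of each list left 1153 members in 849 genes, with median heights of 15.0 and 8.70, a ratio of 1.66, shares past 2-fold of 34.1% and 0.954%, and WGATAA in 87.0%. The tallest DKO peak within 500 bp gave a median DKO height of 7.47. Divided by the median ratio of all shared peaks, 1.22 (0.281 on the log2 scale), the median ratio was 1.18, and the shares past 2-fold were 14.0% for WT and 3.10% for DKO. With ES heights subtracted the ratio was 1.38. The looser WGATAR (R for A or G) gave a share of 85.7%, the bases within 100 bp 69.0% with 3 CpGs and those within 50 bp 54.3%. Outside the exons of any transcript lay 93.2%. Other alternatives chosen after seeing the data were members with their own DKO peak (WT height 11.4, ratio 1.49, shares 27.2% and 0.618%), members away from every GENCODE start (WGATAA 80.3%), and members without chromosomes 8 and 11, which moved no value past its interval. No paired analysis was possible because each condition has 1 library. The lists give no depth, so a site missing from a list may only have fallen under its threshold.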

Other observations

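Few members lay mostly in repeats. In 1252 of the 2293 windows, or 54.6%, no base was soft-masked (in lower case, as for repeats) in the deposited sequence. In 181, or 7.89%, over 50% of bases were, against 12.5% of the shared peaks outside genes. The windows in *Lrrfip1*, which with *Prkag2* and *Kcnq5* held the most WGATAA, had 10 and 9 matches, with heights of 16.9 and 8.64 at the former and 20.4 and 10.4 at the latter. The 475 members with TGACTCA, the AP-1 sequence, had a median ratio of WT to DKO height of 1.34, with 21.3% at least 2 times higher in WT, and the 1818 without it 1.46, with 26.4%.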
